A study of Homo sapiens with 4 samples.

Results

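The miR-92b hairpin gives 2 mature miRNAs, hsa-miR-92b-5p from its 5′ arm and hsa-miR-92b-3p from its 3′ arm, written here without the species prefix. Both were followed by name through 4 small RNA libraries of RD cells, as 2 of the 2656 mature miRNAs counted. RD is a human cell line grown from an embryonal rhabdomyosarcoma, a soft tissue tumour that expresses muscle genes, and no drug or other treatment is labelled. Biotinylated antisense probes were mixed with native lysate and pulled out with streptavidin beads. The EVEN and ODD libraries come from separate probe sets against exon 2 of HIPK3, the exon that makes up the circular RNA circHIPK3, the LacZ library comes from control probes against a bacterial mRNA, and the input library comes from the lysate. Each group is 1 library of 1 biological replicate. Exon 2 also belongs to linear HIPK3 mRNA, and how much circHIPK3 each probe set caught was not analysed here. The hairpin was chosen by its read counts in these libraries, so its levels and ratios are given as a description, with no test.

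A miRNA hairpin is cut by Drosha and Dicer into a short duplex of its arms. Usually the arm called the guide is kept in an Argonaute protein, where its seed near the 5′ end pairs with target RNA, and the passenger arm is mostly degraded. The 3p arm is the usual guide of miR-92b and belongs to the miR-25/92 family, which has been linked to proliferation. In Drosophila, miR-92b acts in a feedback loop with the muscle transcription factor Mef2.

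MIR92B lies on the plus strand at chr1:155195177-155195272 of GRCh38. The whole hairpin falls in an exon of AC234582.1, a GENCODE antisense transcript on the same strand (chr1:155195004-155205495). The RefSeq hairpin (GRCh38.p14) is shown because both arms are read from it, with the arms in capitals, the 5p arm at bases 20 to 41 and the 3p arm at bases 61 to 82:
MIR92B: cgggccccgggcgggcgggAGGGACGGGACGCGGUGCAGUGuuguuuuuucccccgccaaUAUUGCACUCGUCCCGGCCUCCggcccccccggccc
The hairpin is 96 bases long and 75.0% G or C. In its predicted minimum free energy structure (-66.0 kcal/mol), 19 bases of each arm's 22 pair with the other arm. The mature sequences are shown with the seed, bases 2 to 8, in capitals, beside the 3 relatives of miR-92b-3p that were detected:
miR-92b-5p: aGGGACGGgacgcggugcagug
miR-92b-3p: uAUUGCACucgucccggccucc
miR-92a-3p: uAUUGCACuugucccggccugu
miR-25-3p: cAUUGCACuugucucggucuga
miR-32-5p: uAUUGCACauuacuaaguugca
miR-92b-5p lies at chr1:155195196-155195217 and miR-92b-3p at chr1:155195237-155195258. The 5p arm is 72.7% G or C, with G alone at 54.5%, and the 3p arm is 63.6% G or C. No other mature miRNA in the RefSeq table has the seed GGGACGG of the 5p arm, whereas 6 miRNAs, miR-92b-3p included, have the seed AUUGCAC. miR-92b-3p is identical to miR-92a-3p over its first 9 bases and differs from it at 3 of 22 positions, counted from 1 at the 5′ end (C10U, C21G and C22U, the miR-92b-3p base first). The handling of reads that fit both is not stated, so the split between these 2 miRNAs is uncertain. miR-92b-5p differs from miR-92a-1-5p, the 5p arm of the MIR92A1 hairpin, at 14 positions.

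The libraries held 98950 miRNA reads for EVEN, 426450 for ODD, 425395 for LacZ and 2987858 for the input. Levels are given in CPM, each count divided by the summed miRNA counts of its library (counts-per-million scaling), with 95% exact Poisson intervals. All intervals here cover counting error only, and with 1 library per group no difference has a replicate check. As a check of the label, the 4 muscle miRNAs miR-206, miR-1-3p, miR-133a-3p and miR-133b were all detected in every library and summed to between 34970 and 103780 CPM, against 73.6 to 886 CPM for 8 miRNAs of liver, blood, epithelium and neurons. Most of the muscle sum was miR-206, at 95311 of 103780 CPM in EVEN, 32745 of 34970 in ODD, 59009 of 66952 in LacZ and 42097 of 62125 in the input. In ODD, miR-133a-3p at 793 CPM and miR-133b at 30.5 lay below the epithelial miR-205-5p of the second list, at 832. Of that second sum, miR-205-5p gave 202 of 445 CPM in EVEN, 832 of 886 in ODD, 489 of 606 in LacZ and 1.34 of 73.6 in the input. Within that list miR-451a had 0 reads in every library, and miR-122-5p and miR-124-3p had 0 reads in EVEN and ODD.

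The 5p arm differed most between the libraries. miR-92b-5p had 350 reads in EVEN, 272 in ODD, 112 in LacZ and 63 in the input. At the depth of each library this was 3537 CPM in EVEN (interval 3176 to 3928), 638 in ODD (564 to 718), 263 in LacZ (217 to 317) and 21.1 in the input (16.2 to 27.0). No pair of these intervals overlaps, and the order was EVEN, ODD, LacZ and input. By rank, which does not depend on the scaling, miR-92b-5p stood 37th among 439 detected miRNAs in EVEN, 78th among 592 in ODD, 156th among 745 in LacZ and 352nd among 1146 in the input.

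The 3p arm stayed within a narrow range. miR-92b-3p had 28 reads in EVEN, 71 in ODD, 82 in LacZ and 407 in the input. These counts gave 283 CPM in EVEN (188 to 409), 166 in ODD (130.0 to 210.0), 193 in LacZ (153 to 239) and 136 in the input (123 to 150.1). By library totals its order was EVEN, LacZ, ODD and input, and each neighbour in that order overlapped the next. The EVEN and LacZ intervals both lay above that of the input. With TMM factors, which rescale libraries by the bulk of their miRNAs, ODD stands above EVEN and LacZ, and LacZ is at the level of the input (log2 ratio -0.09). Its rank was 122nd in EVEN, 133rd in ODD, 168th in LacZ and 186th in the input.

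**Figure D1:**
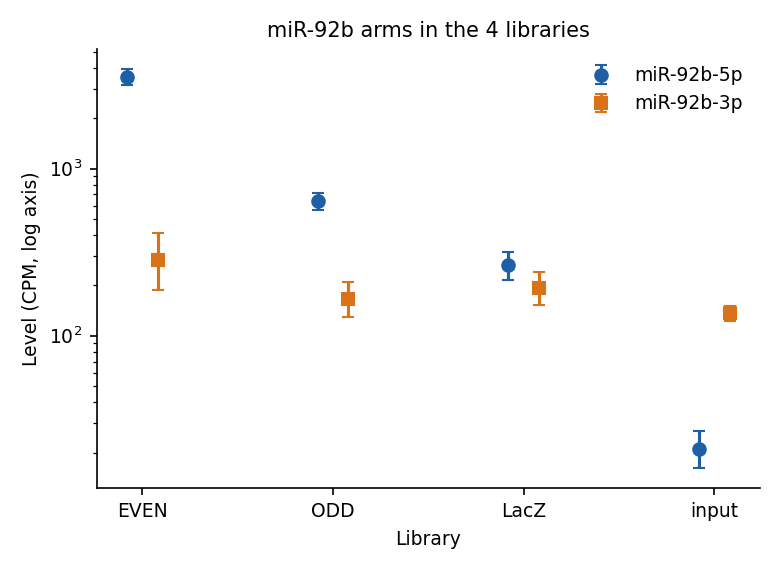
Level of miR-92b-5p (circles) and miR-92b-3p (squares) in CPM on a log axis in each library, with 95% exact Poisson intervals. The 5p arm spans 21.1 to 3537 CPM, and the 3p arm 136 to 283 CPM.

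The leading arm changed between the lysate and the pull-downs. In the EVEN library 92.6% of the 378 reads of the hairpin came from the 5p arm (95% exact binomial interval 89.5 to 95.0). The share was 79.3% of 343 reads in ODD (74.6 to 83.5), 57.7% of 194 reads in LacZ (50.4 to 64.8) and 13.4% of 470 reads in the input (10.5 to 16.8). As a ratio of 5p to 3p reads, this was 12.5 in EVEN, 3.83 in ODD, 1.37 in LacZ and 0.155 in the input, so the 3p arm was 6.46 times the 5p arm in the lysate. The shares do not overlap between any pair of libraries. Being taken within a library, they do not depend on the library's depth scaling.

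**Figure D2:**
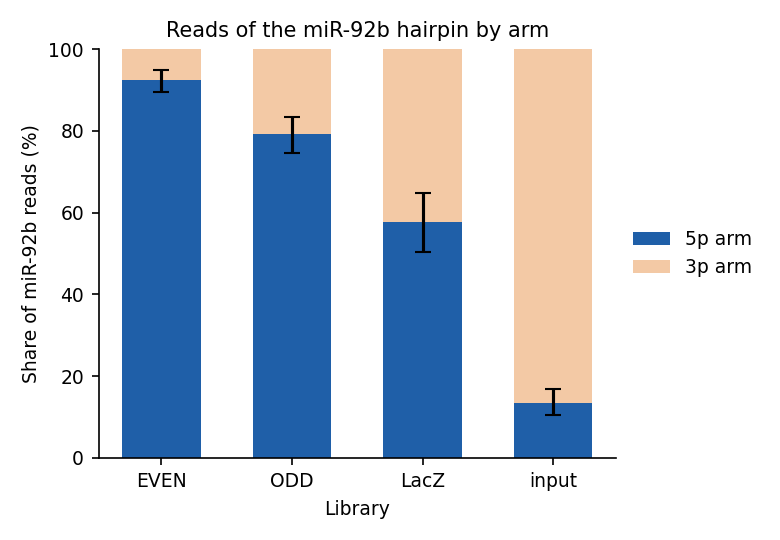
Share of miR-92b reads (%) from the 5p arm (dark, lower part) and the 3p arm (light, upper part) in each library, with 95% exact binomial intervals on the 5p share. The 5p share is 92.6% in EVEN, 79.3% in ODD, 57.7% in LacZ and 13.4% in the input.

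The comparison of each probe set with LacZ asks what the circHIPK3 probes recovered beyond control probes. Both comparisons share the same LacZ library. Probe sequences were not used here, so complementarity between the probes and the miR-92b arms was not tested. Tested miRNAs are those with 20 reads or more in either library of a pair, and a miRNA is called higher or lower when the log2 ratio of its shares of reads, with 0.5 added to each count, passed 2-fold. Folds are ratios of shares without the 0.5, with 95% exact conditional intervals. miR-92b-5p was 13.4-fold higher in EVEN than in LacZ (10.8 to 16.8) and 2.42-fold higher in ODD than in LacZ (1.94 to 3.05). miR-92b-3p was called in neither direction, at 1.47-fold in EVEN over LacZ (0.920 to 2.28) and 0.864-fold in ODD over LacZ (0.620 to 1.20).

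Of the 289 miRNAs tested in EVEN over LacZ, 9.69% were higher and 51.2% lower. Of the 300 in ODD over LacZ, 13.0% were higher and 70.3% lower. Over the tested miRNAs, the log2 ratio had a median of -1.06 in EVEN over LacZ and -1.79 in ODD over LacZ. Relative to these medians, miR-92b-5p lay 4.80 above in EVEN and 3.07 above in ODD, and miR-92b-3p 1.63 and 1.58 above. By position from the top, miR-92b-5p was 7th with EVEN and 32nd with ODD, and miR-92b-3p 45th and 66th. TMM factors shift every ODD over LacZ log2 ratio by 1.29 and every EVEN over LacZ one by 0.26. With them miR-92b-5p stood at 2.56 in ODD over LacZ instead of 1.27, and miR-92b-3p at 1.08 instead of -0.21, which turns its direction and puts it past 2-fold.

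The EVEN and ODD probes address the same exon, and their libraries differed in the 5p arm. miR-92b-5p was 5.55-fold higher in EVEN than in ODD (4.72 to 6.52), against a background of 37.9% higher and 18.2% lower among 203 miRNAs. Its log2 ratio was 2.47 by library totals and 1.45 with TMM factors. miR-92b-3p was 1.70-fold in EVEN over ODD (1.06 to 2.67), under the 2-fold call, and its log2 ratio of 0.78 turned to -0.24 with TMM factors.

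Against the input, miR-92b-5p was higher in all 3 pull-downs, control included. It was 168-fold higher in EVEN (128 to 223), 30.2-fold in ODD (22.9 to 40.4) and 12.5-fold in LacZ (9.09 to 17.3). The control probes are directed at a bacterial sequence, and their library still held miR-92b-5p at a share above that of the lysate. miR-92b-3p was 2.08-fold higher in EVEN than in the input (1.36 to 3.05), a call that TMM factors end at a log2 ratio of 0.74. The call held in the other settings. The log2 ratio was 1.20 with median-of-ratios size factors and 1.82 with totals without the 10 most abundant miRNAs. It was 1.27 with 5 added to each count and 1.05 with 1 CPM added to the CPM. miR-92b-3p was 1.22-fold in ODD over the input (0.936 to 1.58) and 1.42-fold in LacZ over the input (1.10 to 1.80), neither of them called. With TMM factors its log2 ratio of 0.51 in LacZ over the input turned to -0.09, and median-of-ratios size factors put ODD over the input at 1.47 instead of 0.30. Over all tested miRNAs, 18.3% were higher and 52.2% lower in EVEN over the input, 13.0% and 68.6% in ODD over the input, and 18.1% and 34.3% in LacZ over the input. The higher counts include miRNAs with under 20 input reads, which are tested through the shallower pull-down only and are higher by that rule. miR-92b-5p was 3rd of 464 from the top in EVEN, 9th of 468 in ODD and 24th of 475 in LacZ.

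These backgrounds move with the scaling and with the added constant. In EVEN over LacZ, 28 higher and 148 lower became 43 and 107 with median-of-ratios size factors. In ODD over LacZ, 39 and 211 became 66 and 103 with TMM factors, and in EVEN over ODD, 77 and 37 became 20 and 64. In LacZ over the input, 86 and 163 became 63 and 246 with TMM factors. When totals were taken without the top 10 miRNAs by reads, 85 and 242 in EVEN over the input became 123 and 176, and 61 and 321 in ODD over the input became 102 and 243. TMM factors moved the counts of EVEN over the input the other way, to 72 and 282. With 5 added to each count, EVEN over the input had 194 higher and 99 lower, and LacZ over the input 100 and 93. In both, more miRNAs were then higher than lower, the reverse of the main setting.

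**Figure D3:**
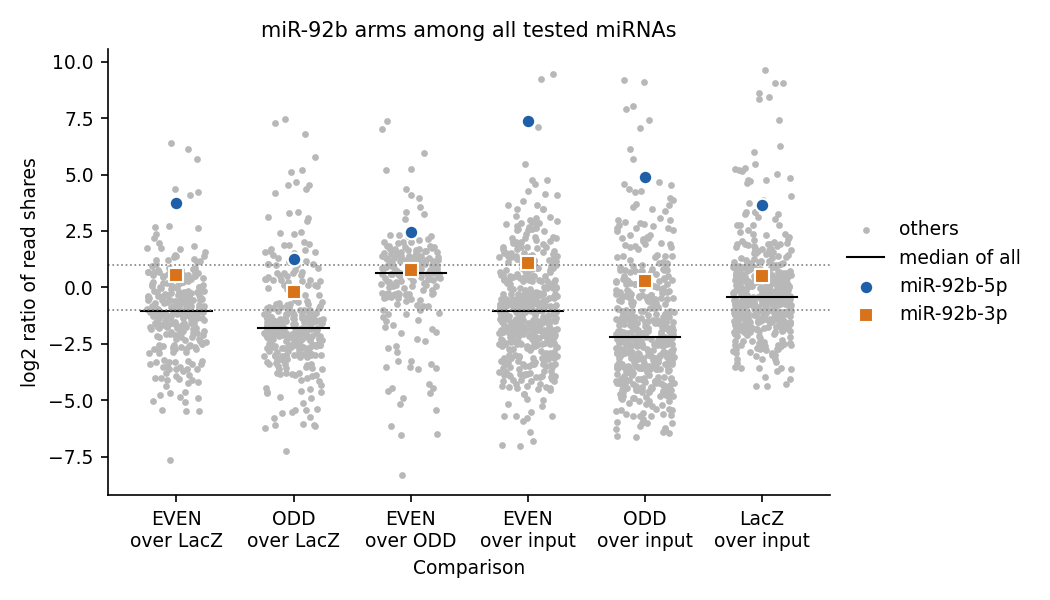
log2 ratio of read shares for every tested miRNA (grey points) in 6 comparisons, with the median of all (black line), miR-92b-5p (circle), miR-92b-3p (square) and dotted lines at 2-fold. By library totals miR-92b-5p lies above the upper dotted line in all 6 comparisons, and miR-92b-3p only in EVEN over input.

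The change in the 5p to 3p ratio was set beside that of other hairpins. The 2 arms were paired where they share a name stem, with at least 20 reads over both arms in each library compared; some stems stand for several genomic copies. The miR-92b ratio was 9.15 times higher in EVEN than in LacZ (exact conditional interval of the odds ratio 5.55 to 15.3) and 2.80 times higher in ODD than in LacZ (1.87 to 4.20). It was 3.26 times higher in EVEN than in ODD (2.01 to 5.40). Over the input it was 80.8 times higher in EVEN (49.5 to 133), 24.7 times in ODD (16.8 to 36.6) and 8.82 times in LacZ (5.87 to 13.3).

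Arm ratios moved in many hairpins. In EVEN over LacZ, 30.1% of 103 hairpins had a ratio at least 2-fold higher and 31.1% at least 2-fold lower. In ODD over LacZ the shares were 36.0% and 20.8% of 125, and in EVEN over ODD 28.2% and 35.0% of 103. Over the input they were 38.5% and 30.8% of 104 for EVEN, 46.5% and 22.5% of 129 for ODD, and 29.6% and 27.8% of 169 for LacZ. From the top, miR-92b was 10th in EVEN over LacZ, 34th in ODD over LacZ, 16th in EVEN over ODD, 2nd in EVEN over input, 8th in ODD over input and 13th in LacZ over input.

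Some of the largest changes rest on an arm with 0 reads. In EVEN over LacZ the 3 largest rises were let-7i, miR-21 and miR-1180, and the 3 largest falls miR-133a, miR-140 and miR-199a. Each of these 6 has an arm at 0 reads in EVEN, so its size is set by the added 0.5. miR-21, for example, had 2410 reads of 5p and 0 of 3p in EVEN, against 599 and 5 in LacZ. miR-1180 had 0 reads of 5p in both libraries and 32 of 3p in EVEN, against 1309 in LacZ, so its rise compares 3p counts with the constant only. The fall of miR-199a does the same with 5p counts, 122 in EVEN against 2205 in LacZ, with 0 reads of 3p in both. In ODD over LacZ the largest rises were miR-509, with 0 reads of 5p in LacZ, miR-21, with 0 of 3p in ODD, and let-7i. There let-7i had 23901 reads of 5p and 6 of 3p in ODD, against 19086 and 432 in LacZ. The largest falls in ODD over LacZ were miR-17, miR-409 and miR-576, the last with 1 read of 3p in LacZ. miR-17 had 116 reads of 5p and 4984 of 3p in ODD, against 549 and 213 in LacZ. One further condition, added after the values were seen, asked for at least 1 read of each arm in each library compared. With it miR-92b was 5th of 64 in EVEN over LacZ, 20th of 87 in ODD over LacZ and 10th of 64 in EVEN over ODD. Over the input it was 1st of 65 in EVEN, 5th of 93 in ODD and 7th of 125 in LacZ. Of these hairpins 23.4%, 33.3%, 28.1%, 35.4%, 45.2% and 27.2% had a ratio at least 2-fold higher, in the same order.

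**Figure D4:**
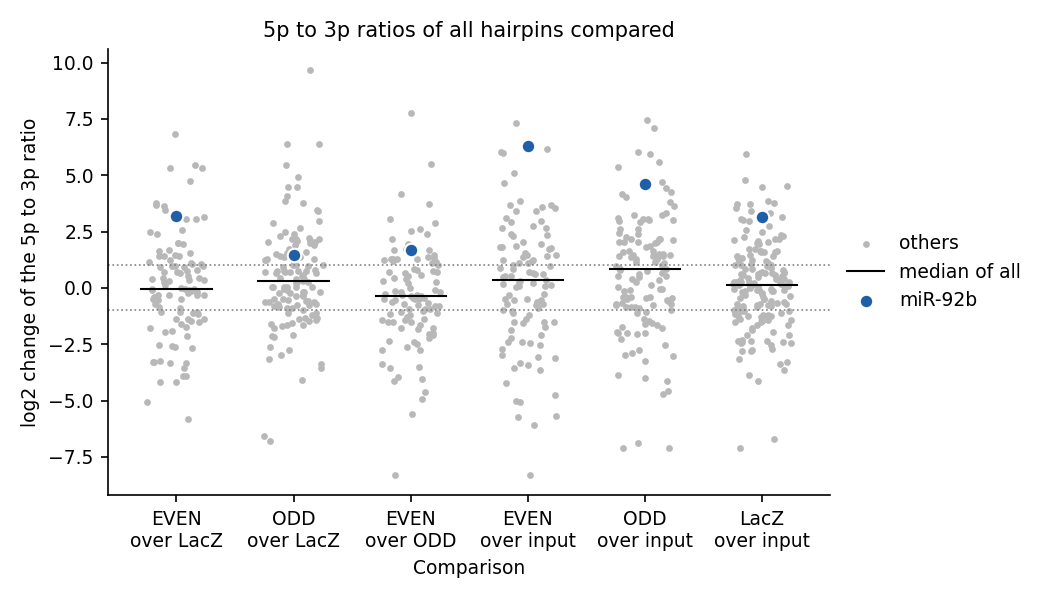
log2 change of the 5p to 3p read ratio for every hairpin compared (grey points) in 6 comparisons, with the median (black line), miR-92b (circle) and dotted lines at 2-fold. miR-92b lies above the upper dotted line in all 6, as do 28.2% to 46.5% of hairpins.

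The leading arm was compared over all 4 libraries. Of 102 hairpins with at least 20 reads in all 4 libraries, 53 had more 5p than 3p reads in every library and 37 did not in any. In 4 the 3p arm led in the input and the 5p arm led in EVEN, ODD and LacZ, namely miR-92b, miR-15b, miR-193b and miR-483, a set looked up after the values were seen. The miR-193b hairpin had 117 reads of 5p and 6 of 3p in EVEN, 100 and 13 in ODD, 77 and 47 in LacZ, and 147 and 282 in the input. miR-483, from the imprinted IGF2 locus, had 4278 and 377 in EVEN, 6371 and 1985 in ODD, 8043 and 4020 in LacZ, and 6600 and 8410 in the input. miR-15b, of the miR-15/16 family that represses cell cycle genes, had 69 and 56 in EVEN, 3425 and 92 in ODD, 346 and 280 in LacZ, and 6307 and 7088 in the input.

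Among the 6 miRNAs with the seed AUUGCAC, miR-92b-3p was a minor one. miR-363-3p and miR-367-3p had 0 reads in all 4 libraries. miR-92b-3p made up 0.706% of the family's 3967 reads in EVEN (95% exact binomial interval 0.470 to 1.02), 0.956% of 7427 in ODD (0.747 to 1.20), 0.461% of 17804 in LacZ (0.366 to 0.571) and 0.397% of 102602 in the input (0.359 to 0.437). The ODD interval lies above those of LacZ and the input. The EVEN interval also lies above that of the input, but it overlaps that of LacZ. miR-92a-3p, from the MIR17HG cluster and its X-linked copy, had 2742 reads in EVEN, 5237 in ODD, 10393 in LacZ and 29471 in the input. Reads of miR-92b-3p were 1.02% of that number in EVEN, 1.36% in ODD, 0.789% in LacZ and 1.38% in the input.

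The detected relatives did not move alike against LacZ. miR-92a-3p was 1.13-fold in EVEN over LacZ (1.09 to 1.18) and 0.503-fold in ODD over LacZ (0.486 to 0.520), called in neither. miR-25-3p, of the MIR106B cluster, had 1191 reads in EVEN, 2110 in ODD, 7056 in LacZ and 68459 in the input. It was 0.726-fold in EVEN over LacZ (0.682 to 0.772) and 3.35-fold lower in ODD than in LacZ (3.19 to 3.52). miR-32-5p had 6 reads in EVEN, 9 in ODD, 273 in LacZ and 4265 in the input. It was 10.6-fold lower in EVEN than in LacZ (4.80 to 29.1) and 30.4-fold lower in ODD than in LacZ (15.8 to 67.2). Of the 4 tested family members, 0 were higher and 1 lower in EVEN over LacZ, and 0 higher and 2 lower in ODD over LacZ, with median log2 ratios of -0.14 and -1.37. The shares lower over all tested miRNAs were 51.2% and 70.3%, and nothing particular to the family is read from these counts. With TMM factors ODD over LacZ has 1 higher, miR-92b-3p, and 1 lower, miR-32-5p, with a median of -0.08. The miR-25-3p log2 ratio is then -0.46 instead of -1.74, no longer past 2-fold, and that of miR-92a-3p turns to 0.30 instead of -0.99. In EVEN over LacZ the family's median becomes 0.12 with TMM factors, and the counts are still 0 higher and 1 lower.

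**Figure D5:**
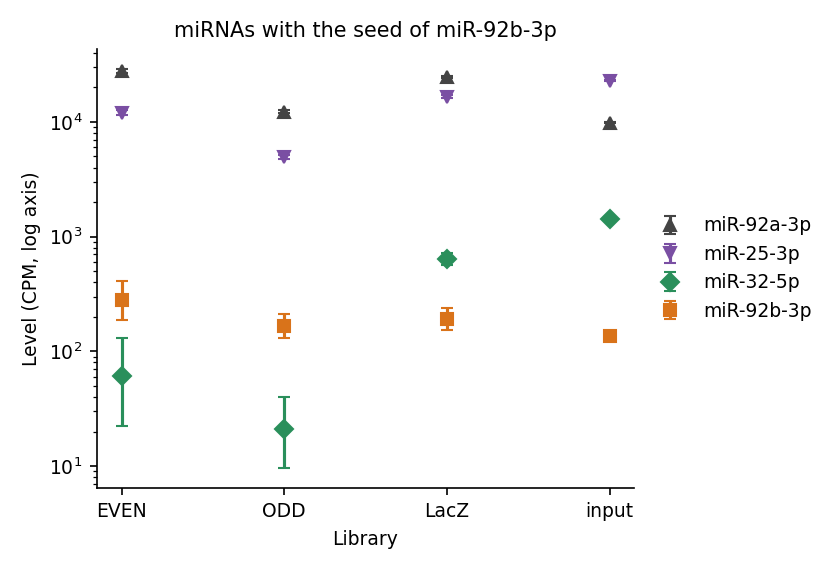
Level in CPM (log axis) of the 4 detected miRNAs with the seed of miR-92b-3p in each library, with 95% exact Poisson intervals. miR-92b-3p stays between 136 and 283 CPM, while miR-32-5p is at 60.6 CPM in EVEN and 21.1 in ODD, against 642 in LacZ and 1427 in the input.

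Among the opposite arms of this family, miR-92b-5p took most pull-down reads. Of 7 such arms listed, 3 had 0 reads everywhere (miR-92a-2-5p, miR-363-5p and miR-367-5p). miR-92b-5p made up 94.3% of 371 reads of these arms in EVEN (91.5 to 96.5), 86.1% of 316 in ODD (81.8 to 89.7), 64.0% of 175 in LacZ (56.4 to 71.1) and 18.2% of 346 in the input (14.3 to 22.7). miR-92a-1-5p had 5 reads in EVEN, 28 in ODD, 12 in LacZ and 48 in the input, and was 2.33-fold higher in ODD than in LacZ (1.15 to 5.03). miR-25-5p had 16 in EVEN, 16 in ODD, 41 in LacZ and 88 in the input, and was 2.57-fold lower in ODD than in LacZ (1.41 to 4.90). With TMM factors that last difference is under 2-fold, where its log2 ratio is -0.05 instead of -1.33, and in EVEN over LacZ they take it past 2-fold, to 1.04 instead of 0.77. miR-32-3p had 0 reads in EVEN and ODD, and the limit of 3 reads set here for a count of 0 is 30.3 CPM in EVEN and 7.03 CPM in ODD. It had 10 reads in LacZ and 147 in the input.

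The miR-25 hairpin, whose arms are read from a single name stem, gives a comparison within the family. Its 5p share was 1.33% of 1207 reads in EVEN (0.760 to 2.14), 0.753% of 2126 in ODD (0.431 to 1.22), 0.578% of 7097 in LacZ (0.415 to 0.783) and 0.128% of 68547 in the input (0.103 to 0.158). The 5p share was thus lowest in the input for miR-25 as for miR-92b, but its 3p arm led in all 4 libraries.

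The miRNAs most like each arm were found by the distance over 3 log2 ratios (LacZ over input, EVEN over LacZ and ODD over LacZ) among 305 miRNAs with at least 20 reads in a pull-down. For miR-92b-5p, at 3.64, 3.74 and 1.27 in these ratios, the nearest were miR-3184-3p (distance 1.99), miR-193b-5p (2.23), miR-423-5p (2.41), miR-4741 (2.49) and miR-760 (2.92). All 5 were above 0 in all 3 ratios by library totals. They were picked by these same ratios, so their signs are no separate result. miR-193b-5p had ratios of 1.88, 2.70 and 0.37, and miR-423-5p of 2.34, 1.75 and 1.64. miR-423-5p and miR-3184-3p lie at the same bases of opposite strands (chr17:30117095-30117117), and whether reads were counted by strand is not stated, so they are not separate results. miR-4741 rests on 8 reads in EVEN, 44 in ODD, 13 in LacZ and 13 in the input. Their mature sequences are shown, seed in capitals, for comparison with miR-92b-5p above:
miR-193b-5p: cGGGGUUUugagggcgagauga
miR-423-5p: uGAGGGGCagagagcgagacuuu
miR-4741: cGGGCUGUccggaggggucggcu
miR-760: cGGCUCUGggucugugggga
These 4 sequences hold between 43.5% and 52.2% G. The G content of miR-3184-3p, the reverse complement of miR-423-5p, is 13.0%. The share of G over all miRNAs is not given here. Of the miRNAs named next for the 3p arm, miR-206 falls in the same range, at 45.5% G. miR-320b is at 40.9%, miR-324-3p at 30.4% and miR-1260a at 5.56%.

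The 3p arm had closer neighbours. At 0.51, 0.57 and -0.21, miR-92b-3p was nearest to miR-320b (0.42), miR-320a-3p (0.55), miR-206 (0.65), miR-1260a (0.80) and miR-324-3p (0.86). The miR-320 hairpins are made without Drosha, and miR-206 is a skeletal muscle miRNA. miR-206 had 9431 reads in EVEN, 13964 in ODD, 25102 in LacZ and 125781 in the input, far more than miR-92b-3p. These neighbours too were picked by the same ratios, so their likeness is no separate result. In ODD over LacZ, miR-206 was 0.555-fold (0.544 to 0.567), below the interval of miR-92b-3p (0.620 to 1.20).

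The 5p arm belongs to the most G- and C-rich miRNAs. Of 2367 counted miRNAs matched to RefSeq, 10.1% were at least 70% G or C, and the median was 52.2%. In LacZ over the input, 14 of 19 such miRNAs were higher and 5 lower, and the median of their log2 ratios was 2.77. Of the other 415, 65 were higher and 137 lower, with a median of -0.45. In EVEN over the input, 10 of 16 were higher and 4 lower (median 1.501), against 69 and 215 of the other 409 (median -1.067). In ODD over the input, 8 of 16 were higher and 6 lower (median 0.623), against 50 and 284 of the other 412 (median -2.126). In EVEN over LacZ, 3 of 15 were higher and 7 lower, with a median of -0.92, against 24 and 127 of the other 252 and a median of -1.02. In ODD over LacZ, 4 of 15 were higher and 8 lower, with a median of -2.60. Of the other 262, 34 were higher and 185 lower, with a median of -1.79. Where one library of a pair is far deeper, a miRNA with under 20 reads in it enters through the shallower one only. Such a miRNA is higher in the shallower library by that rule alone. In this group, miR-4741 entered ODD over the input that way, with 44 reads against 13. How many miRNAs on either side entered so was not counted, and these counts and medians are description only. miR-92b-5p is itself counted among the higher members in each comparison above. Within the group it was 8th from the top in LacZ over the input, and 2nd in both EVEN and ODD over the input. Against LacZ it was 2nd in EVEN and 3rd in ODD. By mean CPM over the 4 libraries, the most abundant members among those tested in EVEN over LacZ were miR-1307-3p (1259), miR-92b-5p (1115) and miR-1247-5p (638), closely followed by miR-324-3p (609). miR-1307-3p had 34 reads in EVEN, 148 in ODD, 1808 in LacZ and 284 in the input. miR-1247-5p had 17 in EVEN, 796 in ODD, 213 in LacZ and 41 in the input, so these 2 were highest in LacZ and in ODD, not in EVEN. miR-324-3p was flatter, at 707 CPM in EVEN, 689 in ODD, 712 in LacZ and 327 in the input. The part of base composition in the miR-92b-5p levels was not tested.

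Exon 2 of HIPK3 (chr11:33286413-33287511 of GRCh38, plus strand, 1099 bases) was searched on its sense strand, with its ends joined as in the circle, for the reverse complement of each seed. Neither CCGTCCC for miR-92b-5p nor GTGCAAT for miR-92b-3p occurs there. Of 1913 distinct seeds of the counted miRNAs, 7.32% have such a match. With bases 2 to 7 only, miR-92b-3p has 1 match (TGCAAT) and miR-92b-5p (CGTCCC) has 0, beside 24.4% of 1441 distinct sequences with a match.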

How the data were processed

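Small RNA was sequenced from RD lysate and 3 pull-downs. Per the labels' protocols, a QIAseq miRNA kit was used, with single-end reads on a NovaSeq. For each mature miRNA the authors deposited a raw count, and CPM that equal each count scaled by its library total to within 1.46e-11. The submitters' processing notes name GRCh38. What aligner, annotation, multi-mapping rule, strand setting and identifier step were used is not given in the sources here. If molecular identifiers were not collapsed, intervals are too narrow.

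From the counts, log2 ratios, folds, arm ratios and exact intervals were computed (Python 3.11.15, pandas 2.3.3, scipy 1.17.1). With 1 library per group no replicate test exists. edgeR 4.0.16 and DESeq2 1.42.0 gave scaling factors only. Structure came from ViennaRNA 2.7.2, and sequences from RefSeq (GRCh38.p14), which matched 2367 of 2656 names. The steps were tested on simulated data.

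Members and lists were chosen with earlier results of these data known. Named were the arms, their seed family and its opposite arms, the 5 nearest miRNAs to each arm, the 3 largest rises and falls of arm ratio against LacZ, seed sharers and the 3 most abundant miRNAs of at least 70% G or C. Alternatives were other scalings, added constants, read minimums and a 4-fold threshold.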

Additional observations from a re-analysis of the deposited data

Results flagged for a closer look

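For 3 miRNAs named beside miR-92b-3p, the EVEN and ODD libraries lay on opposite sides of LacZ, with both counting intervals excluding 1. miR-92a-3p was 1.13-fold in EVEN over LacZ and 0.503-fold in ODD over LacZ. miR-320a-3p was 1.37-fold in EVEN over LacZ and 0.599-fold in ODD over LacZ. miR-206 was 1.62-fold in EVEN over LacZ and 0.555-fold in ODD over LacZ. Other miRNAs named here split as well. miR-133a-3p was 2.17-fold in EVEN over LacZ and 0.265-fold in ODD over LacZ, and miR-133b 2.72-fold and 0.228-fold. miR-205-5p split the other way, at 0.413-fold and 1.70-fold. How many of all tested miRNAs split was not counted. Each group is 1 library, both comparisons share LacZ, and the difference between them was not tested. TMM factors shift every ODD over LacZ log2 ratio by 1.29, which would put miR-92a-3p, miR-320a-3p and miR-206 above LacZ in ODD as well. The log2 ratios of miR-133a-3p and miR-133b in ODD over LacZ, -1.91 and -2.09, lie further below 0 than that shift.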

How the results depend on the processing

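miR-92b-5p was past 2-fold in all 6 comparisons under each of the 5 other scalings and constants, with log2 ratios of 1.24 to 8.13 over 30 values. In EVEN over LacZ it stood at 4.15 with median-of-ratios size factors and 4.16 without the 10 most abundant miRNAs. In ODD over LacZ it stood at 2.56 with TMM factors, at 2.72 when size factors were medians of ratios, and at 1.97 without the 10 most abundant miRNAs. miR-92b-3p in ODD over LacZ stood at 1.08, 1.24 and 0.49 in these 3 settings, against -0.21 by library totals. It was past 2-fold in 8 of its 30 values. For the miR-92b arm ratio, which does not depend on the scaling, only the added constant was changed. Its 12 recomputed changes stayed within their counting intervals.

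Counts of all miRNAs depend on the settings. The count higher ranged from 12 to 149 around 28 in EVEN over LacZ, 20 to 155 around 39 in ODD over LacZ, 19 to 260 around 77 in EVEN over ODD, 43 to 677 around 85 in EVEN over input, 41 to 412 around 61 in ODD over input and 45 to 478 around 86 in LacZ over input. The count lower ranged from 76 to 248 around 148, 96 to 517 around 211, 25 to 83 around 37, 99 to 282 around 242, 218 to 428 around 321 and 55 to 246 around 163, in the same order. All 6 highest counts of higher miRNAs came at a minimum of 1 read, where the added 0.5 weighs most in the shallower library. Hairpins with a higher ratio ranged from 15 to 78 around 31 in EVEN over LacZ and 29 to 111 around 45 in ODD over LacZ. For miR-92b-3p the fewest reads are the 28 of EVEN, which do not separate it from LacZ. For miR-92b-5p they are the 63 of the input, which widen its folds over the input. No paired analysis was possible because each group has 1 library and the labels give no replicate numbers.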
